A study of Mus musculus with 3 samples.

Results

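The subunits of the oxidative phosphorylation machinery were described across macrophages of 3 mouse tissues. Members were all genes of the deposited expression table whose symbols begin with Nduf, Uqcr, Cox4 to Cox8 or Atp5, together with Sdha, Sdhb, Sdhc and Sdhd. Each gene was represented by its longest coding RefSeq transcript. The rule used names only and no measured value, and it gave 92 genes of 20683 with a coding transcript. They comprised 36 subunits of complex I, 7 assembly factors of complex I (the Ndufaf genes), 4 subunits of complex II, 8 of complex III, 20 of complex IV, 15 of complex V, and 2 genes set apart from complex V, Atp5s and Atp5sl. Ndufa4 and Ndufa4l2 were counted with complex IV, where the Ndufa4 protein resides.

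Macrophages came from the heart, the kidney and the liver (Kupffer cells) of unperturbed C57BL/6 mice aged 8 weeks, with no allele or agent named for any group. Cells were sorted as CD11b+F4/80+Ly6G-Ly6C-, and their total RNA was amplified for low input before Illumina sequencing. There was 1 library per tissue, so no difference between tissues could be tested and none has a replicate check. The sources used here do not give the number of mice behind a library. Counted reads summed over all 34711 deposited transcripts came to 14460616 for the heart, 15550837 for the kidney and 16743395 for the liver. These totals count a read once for each transcript it falls in, so they are not library sizes. Over 1 transcript per gene they were 8607054, 9322752 and 10213953.

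All 8 macrophage markers examined were present in each library, with a summed level of 2406 RPKM in the heart, 2324 RPKM in the kidney and 2204 RPKM in the liver (RPKM, reads per kilobase of exon per 1000000 counted reads). Transcripts of other cells were present too. The 12 markers of the thick ascending limb and distal nephron summed to 26.4 RPKM in the heart, 391 in the kidney and 13.9 in the liver. Nearly all of the heart and liver sums was Wnk1, a kinase gene also expressed elsewhere, and the other 11 markers summed to 0.063, 365 and 0.985 RPKM, with 9 of them at 0 reads in both the heart and the liver. The 9 proximal tubule markers summed to 5.0, 34.2 and 6.24 RPKM in the heart, kidney and liver, and without Gpx3 to 0.607, 6.94 and 0.587 RPKM. The 13 cardiomyocyte markers summed to 21.9 RPKM in the heart, 6.96 in the kidney and 0.041 in the liver, the 11 hepatocyte markers to 1.42, 2.39 and 256 RPKM, and the 7 fibroblast and mural markers to 130 (Dcn alone 125), 0.775 and 12.3 RPKM. Lymphocyte markers (6) summed to 3.08, 0.049 and 57.8 RPKM and endothelial markers (6) to 4.87, 8.01 and 144 RPKM. In bulk libraries, fewer cells of a type and less RNA per cell cannot be told apart.

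Oxidative phosphorylation takes place in the inner mitochondrial membrane. Complexes I and II pass electrons from NADH and succinate to ubiquinone, complex III passes them to cytochrome c, and complex IV passes them to oxygen. Complexes I, III and IV pump protons, and complex V, the ATP synthase, uses the proton gradient to make ATP. All members are encoded in the nucleus and imported, while complexes I, III, IV and V also hold subunits made from mitochondrial DNA. In macrophages the balance between oxidative phosphorylation and glycolysis is known to shift with activation.

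The whole set made up a similar share of the signal in each tissue and was lowest in the heart. The RPKM of all 92 members summed to 7492 in the heart, 8780 in the kidney and 10087.5 in the liver. That was 2.82% of the summed RPKM of all genes in the heart library, 3.17% in the kidney library and 3.34% in the liver library. The order heart, kidney, liver held for each of the 5 complexes, in sums that rest most on the members of highest RPKM. It did not hold within complex I, where the 7 core subunits described below took 0.0764%, 0.124% and 0.113% in heart, kidney and liver. Complex I took 0.956%, 1.13% and 1.15% in heart, kidney and liver, complex II 0.175%, 0.184% and 0.235%, and complex III 0.362%, 0.371% and 0.399%. Complex IV took 0.593%, 0.677% and 0.683%, and complex V 0.706%, 0.773% and 0.829%. Kidney and liver were thus close for complexes I and IV, while complex II differed more between them.

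**Figure D1:**
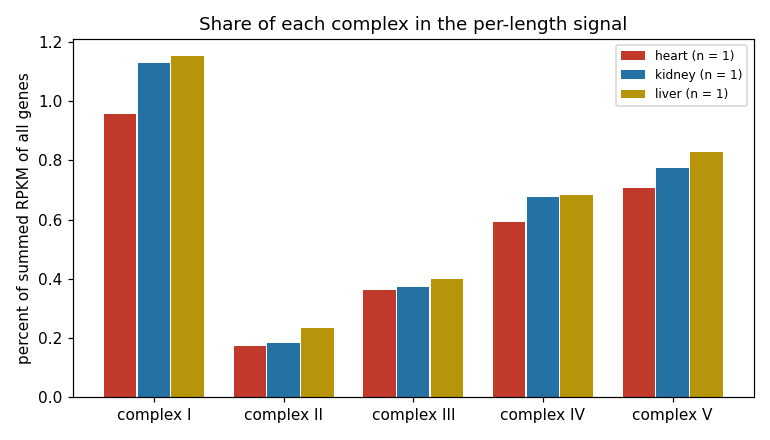
Bars give the summed RPKM of each complex as a percent of the summed RPKM of all genes (vertical axis) in the heart, kidney and liver macrophage libraries, with 1 library per tissue and no error. The heart bar is the lowest of each trio, at 0.956% for complex I against 1.13% in the kidney and 1.15% in the liver.

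Gene by gene the libraries were less alike than these sums. Differences were taken on log2(RPKM + 1) for the 10719 genes, 89 members among them, that reached RPKM 1 in some library, and a difference of at least 1 log2 unit is called 2-fold here. The 3 members below that level everywhere were Cox7b2, Cox8c and Ndufa4l2. A further 5 members passed it in some libraries only (Ndufaf5, Ndufaf6, Cox4i2, Cox6a2 and Cox8b), so that a difference in them follows partly from the filter.

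In the heart against the liver, 11 of 89 members were at least 2-fold higher (12.4%, against 17.2% of all genes compared) and 25 were at least 2-fold lower (28.1%, against 25.1% of all genes). The median difference was -0.44 over the members and -0.18 over all genes. In the heart against the kidney, 3 members were higher (3.37%, against 10.2% of all genes) and 19 were lower (21.3%, against 22.8% of all genes), and the medians were -0.24 for members and -0.23 for all genes, which became 0.027 and about 0 with median ratio scaling (each library scaled by its median ratio to the others over genes). Under that scaling the heart minus kidney medians given further on for complexes II to V also turned positive, to 0.17, 0.17, 0.17 and 0.24, and that of complex I was -0.06. In the kidney against the liver, 20 members were higher (22.5%, against 23.6% of all genes) and 12 were lower (13.5%, against 17.8% of all genes), with medians of -0.16 for members and 0.03 for all genes. On this scale the shares of members apart by 2-fold were close to those of all genes, apart from fewer members higher in the heart. That reading depends on the pseudocount. With a pseudocount of 5, which lowers the differences of weakly expressed genes, 7.87% of members were higher and 21.3% lower in heart than in liver, against 7.35% and 12.2% of all genes. In the kidney against the liver 19.1% of members were then higher and 10.1% lower, against 9.79% and 8.62% of all genes, and in the heart against the kidney 0% were higher and 12.4% lower, against 3.79% and 8.81%. With no filter on low values, 27.2% of members were lower in heart than in liver, against 13% of all genes. That setting takes in all 20683 genes, those below RPKM 1 in every library included, and their median difference was 0. Among genes of at least RPKM 10 in some library, 11.2% of members were higher and 30% lower in heart than in liver. All genes had 17.7% and 28%. There, heart against kidney gave 1.25% and 20% (all genes 11% and 22.2%), and kidney against liver 21.2% and 15% (20.8% and 20%). Heart and kidney were the most alike pair, with a median absolute difference of 0.39 over the members and 0.64 over all genes, against 0.72 and 0.83 between heart and liver and 0.67 and 0.80 between kidney and liver. The comparisons share libraries, so their values are set side by side and not related to each other.

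**Figure D2:**
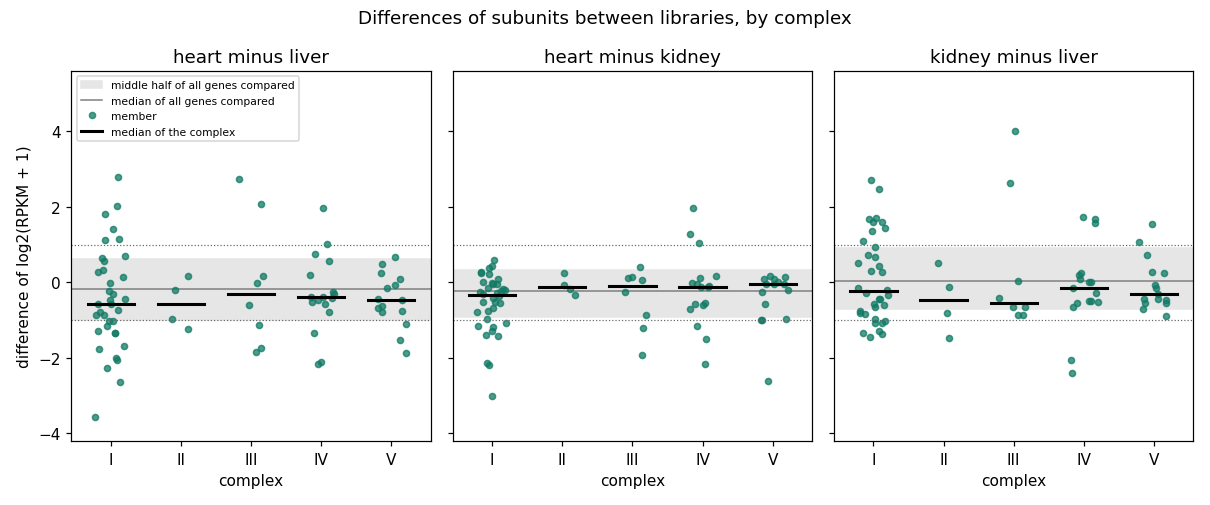
Each point is 1 member, placed by its difference on log2(RPKM + 1) between 2 libraries and grouped by complex, in 1 panel per pair of libraries. Points lie on both sides of 0 in every complex and panel. In complex III Uqcrc1 lies 3.99 above 0 for kidney minus liver, and in complex I Ndufb7 lies at -3.58 for heart minus liver.

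By the library with the highest RPKM, the heart led for 10 of 89 members (11.2%, against 23.1% of all genes), the kidney for 32 (36.0%, against 37.1%) and the liver for 47 (52.8%, against 39.8%). That order turned with read density. Among the 49 members read at more than 2 reads per bp in some library, the kidney led for 10 (20.4%) and the liver for 35 (71.4%), against 20.4% and 52.7% of 922 genes of that density. Among the other 40, the kidney led for 22 (55%) and the liver for 12 (30%), against 38.6% and 38.6% of 9797 genes. A 2-fold margin over both other libraries was less common. The heart was above both for 1 member, Cox8b (1.12%, against 5.43% of all genes), and below both for 9 (10.1%, against 9.39%). The kidney was above both for 9 members (10.1%, against 10.8%) and below both for 1, Cox6b2 (1.12%, against 3.5%). The liver was above both for 10 members (11.2%, against 12.2%) and below both for 9 (10.1%, against 10.3%). The shares above or below both in kidney and liver were near those of all genes except for the kidney below both, and the heart was above both for fewer members.

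Complex I takes electrons from NADH through a chain of iron-sulfur clusters to ubiquinone. Its 7 nuclear core subunits hold the flavin and these clusters, and the 29 accessory subunits surround them. All 36 subunits were compared. In the heart against the liver, 6 were at least 2-fold higher (16.7%, against 17.2% of all genes) and 13 lower (36.1%, against 25.1%). The median was -0.57. In the heart against the kidney, 0 were higher (against 10.2%) and 9 lower (25%, against 22.8%), with a median of -0.34. In the kidney against the liver, 9 were higher (25%, against 23.6%) and 7 lower (19.4%, against 17.8%). That median was -0.24, and 0.30 over the subunits with at most 2 reads per bp on average.

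Of the core subunits, 2 of 7 were at least 2-fold lower in heart than in kidney library (28.6%, against 22.8% of all genes). All 7 were lower on this scale, with a median of -0.68. The smallest of these gaps, -0.03 for Ndufv2, was smaller than the median of all genes. Ndufv1, the flavin-carrying subunit that oxidises NADH, had 6.28 RPKM (95% counting interval 5.30 to 7.39) in the heart, 30.8 (28.7 to 33.1) in the kidney and 22.4 (20.6 to 24.2) in the liver. It was 4.91-fold lower in heart than in kidney (interval of the ratio 4.10 to 5.90) and 3.56-fold lower than in the liver (2.97 to 4.30). The heart library was thus the low one for Ndufv1. All such intervals cover counting error only, since reads amplified by PCR and counted without molecular identifiers are not independent molecules.

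Ndufs7, which holds the last iron-sulfur cluster before ubiquinone, followed another pattern. It had 9.25 RPKM (7.52 to 11.2) in the heart, 45.9 (42.1 to 49.97) in the kidney and 7.43 (5.99 to 9.10) in the liver. The kidney was 6.18-fold above the liver (4.95 to 7.79), and the heart was 4.97-fold below the kidney (4.0 to 6.21). Ndufs8, another iron-sulfur subunit, had 44.7 RPKM in the heart, 88.5 in the kidney and 181 in the liver, so its high library was the liver. The heart was 4.06-fold below the liver for Ndufs8 (3.73 to 4.42).

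Among the other core subunits, Ndufs3, which lies beside the quinone site, had 15.2 RPKM in the heart, 22.4 in the kidney and 6.29 in the liver. Ndufs1, the largest iron-sulfur subunit, had 21.0 RPKM in the heart, 34.3 in the kidney and 43.5 in the liver. Ndufv2, the partner of Ndufv1, had 76.1, 77.6 and 48.2 RPKM in heart, kidney and liver. Subunits of the same module therefore had different orders of tissues. Their spread was widest in the liver and the heart, with an SD over the 7 core subunits of 1.20 log2 units in the heart, 0.69 in the kidney and 1.59 in the liver.

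The accessory subunits held the largest differences of complex I. Ndufa6, an accessory subunit on the matrix side, had 188 RPKM (179 to 198) in the heart, 177 (168 to 186) in the kidney and 26.4 (23.2 to 29.9) in the liver. It was 7.14-fold higher in heart than in liver (6.23 to 8.20) and 6.72-fold higher in kidney than in liver (5.86 to 7.72). Heart and kidney differed by a ratio of 1.06, whose interval (0.989 to 1.14) includes equality. Ndufb7, an accessory subunit on the intermembrane side, ran the other way, with 11.4 RPKM (9.13 to 14.1) in the heart, 99.1 (92.4 to 106) in the kidney and 147 (139 to 155) in the liver. The heart was 12.9-fold below the liver (10.4 to 16.2) and 8.70-fold below the kidney (6.97 to 10.98) for Ndufb7.

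Several further accessory subunits shared one of these orders. Ndufb5 (142, 106 and 34.4 RPKM in heart, kidney and liver), Ndufc1 (153, 116 and 42.6 RPKM) and Ndufa12 (91.0, 103 and 33.5 RPKM) were lowest in the liver, at least 2-fold below both other libraries. Ndufa8 (30.4, 83.7 and 152 RPKM) and Ndufa7 (69.2, 157 and 239 RPKM) were lowest in the heart. Ndufa11, a membrane subunit, had 4.58 RPKM in the heart, 12.5 in the kidney and 33.6 in the liver, and was at least 2-fold apart in each pair of libraries. The most abundant subunits per length were steadier. Ndufa3, in the membrane arm, had 223 RPKM in the heart, 279 in the kidney and 310 in the liver, Ndufa9, near the quinone site, had 142, 156 and 211 RPKM, and Ndufb10, an intermembrane-side subunit, had 165, 171 and 206 RPKM. The lowest subunit was Ndufab1, the mitochondrial acyl carrier protein, at 1.22, 2.19 and 1.58 RPKM in heart, kidney and liver.

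Of the complex I assembly factors, which help build the complex and are not part of it, 7 were compared. By at least 2-fold, 1 was higher (14.3%, against 17.2% of all genes) and 2 lower (28.6%, against 25.1%) in heart than in liver. In the heart against the kidney 0 were higher (against 10.2%) and 2 lower (28.6%, against 22.8%). In the kidney against the liver 3 were higher (42.9%, against 23.6%) and 2 lower (28.6%, against 17.8%). Ndufaf3 and Ndufaf4 work as a pair in the assembly of the quinone-side module, but they had different orders here. Ndufaf3 had 3.59 RPKM (2.70 to 4.67) in the heart, 11.6 (10.1 to 13.4) in the kidney and 3.16 (2.38 to 4.10) in the liver, so the kidney was highest. Ndufaf4 had 4.14 RPKM (3.61 to 4.73) in the heart, 4.29 (3.77 to 4.87) in the kidney and 10.8 (9.96 to 11.6) in the liver, so the liver was highest. Ndufaf5, known from human cells to hydroxylate Ndufs7, had 3.15 RPKM in the heart, 1.89 in the kidney and 0.813 in the liver, an order unlike that of Ndufs7 itself.

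Ndufaf2, a paralogue of Ndufa12 that stands in its place during assembly, had 25.5 RPKM (22.5 to 28.9) in the heart, 25.8 (22.8 to 29.0) in the kidney and 67.1 (62.4 to 72.0) in the liver. Its high library was the one in which Ndufa12 was low. Ndufaf7, a methyltransferase, had 19.0, 25.4 and 18.4 RPKM in heart, kidney and liver, and Ndufaf1 had 5.70, 7.79 and 3.35 RPKM. Ndufaf6 had 0 reads in the heart, 35 in the kidney and 2 in the liver. Set against a floor of 3 reads in the heart library, the heart was at least 10.8-fold below the kidney for Ndufaf6, and the kidney was 18.8-fold above the liver with an interval of 4.84 to 162.

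Complex II, succinate dehydrogenase, also belongs to the tricarboxylic acid cycle. It was the most even complex across its subunits, with an SD of 0.40 log2 units in the heart, 0.62 in the kidney and 0.56 in the liver. Of its 4 subunits, 1 was at least 2-fold lower in heart than in liver (25%, against 25.1% of all genes). Higher in the heart were 0 (against 17.2%). Between heart and kidney 0 were 2-fold apart, against 10.2% of all genes higher and 22.8% lower in the heart. In the kidney against the liver 1 was lower (25%, against 17.8%) and 0 were higher (against 23.6%). Heart minus liver had a median of -0.59, heart minus kidney -0.12 and kidney minus liver -0.47.

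The catalytic subunits of complex II stayed within 2-fold. Sdha, the flavoprotein, had 129 RPKM (125 to 132) in the heart, 135 (132 to 139) in the kidney and 147 (144 to 151) in the liver. Sdhb, the iron-sulfur subunit, had 121 RPKM (116 to 127) in the heart, 154 (148 to 160) in the kidney and 108 (103 to 113) in the liver. The membrane anchors were highest in the liver. Sdhc had 75.4 RPKM (71.3 to 79.6) in the heart, 62.9 (59.3 to 66.7) in the kidney and 178 (172 to 184) in the liver, and Sdhd had 140 (134 to 145), 157 (151 to 162) and 276 (269 to 283) RPKM. The heart was 2.36-fold below the liver for Sdhc (2.21 to 2.51) and 1.98-fold below it for Sdhd (1.89 to 2.07), and the kidney was 2.82-fold (2.64 to 3.02) and 1.76-fold (1.69 to 1.84) below the liver.

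Complex III, the cytochrome bc1 complex, showed the widest difference of the set on the log2(RPKM + 1) scale. In heart against liver, 2 of 8 subunits were at least 2-fold higher (25%, against 17.2% of all genes) and 3 lower (37.5%, against 25.1%). In heart against kidney, 0 were higher (against 10.2%) and 2 lower (25%, against 22.8%). In kidney against liver, 2 were higher (25%, against 23.6%) and 0 lower (against 17.8%). The medians were -0.31, -0.10 and -0.54, and over its subunits with at most 2 reads per bp on average they were 0.46, -0.73 and 0.99. Uqcrc1, a core protein on the matrix side (chr9:108936648-108949641, plus strand, mm10), had 21.3 RPKM (19.5 to 23.2) in the heart, 84.0 (80.5 to 87.6) in the kidney and 4.33 (3.59 to 5.18) in the liver. The kidney was 19.4-fold above the liver (16.1 to 23.5), the heart was 4.91-fold above the liver (4.02 to 6.05) and 3.95-fold below the kidney (3.58 to 4.36). The 3 libraries therefore each held a distinct level of Uqcrc1.

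Uqcrc2, the partner core protein, did not share that order, with 122 RPKM in the heart, 117.2 in the kidney and 185 in the liver. Uqcrq, a small subunit next to cytochrome b, had 74.6 RPKM (68.4 to 81.2) in the heart, 68.5 (62.7 to 74.6) in the kidney and 10.3 (8.19 to 12.7) in the liver. The heart was 7.27-fold (5.78 to 9.26) and the kidney 6.68-fold (5.30 to 8.50) above the liver for Uqcrq. Uqcrq and Ndufa6 thus had the same order, with the liver as the low library.

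Other small subunits of complex III were lowest in the heart. Uqcr10 had 72.8 RPKM (66.3 to 79.8) in the heart, 133 (125 to 142) in the kidney and 245 (234 to 256) in the liver. Uqcr11 had 37.7 RPKM (33.04 to 42.8) in the heart, 87.7 (80.8 to 95.1) in the kidney and 139 (130 to 148) in the liver. The heart was below the liver 3.36-fold for Uqcr10 and 3.68-fold for Uqcr11. The most abundant subunits were Uqcrh, the hinge protein next to cytochrome c1, at 321, 293 and 288 RPKM in heart, kidney and liver, and Uqcrb, the ubiquinone-binding subunit, at 301, 229 and 306 RPKM. The Rieske iron-sulfur protein Uqcrfs1 was lower throughout, at 13.4, 16.3 and 30.8 RPKM.

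The promoters of 4 members with wide differences that hold a match to a searched motif are shown. Uqcrc1 and Ndufs7 were highest in the kidney, Ndufa6 was lowest in the liver and Ndufb7 lowest in the heart. Each runs from 250 bases before to 50 after the gene's start in the RefSeq annotation of GRCm38.p6, 5′ to 3′ on the gene's strand, with the matches in capitals. Uqcrc1 (chr9:108936398-108936697, plus strand) and Ndufa6 (chr15:82354242-82354541, minus strand) hold matches to an NRF-1 motif, GCGCANGCG on either strand. Ndufb7 (chr8:83566508-83566807, plus strand) holds an ETS motif, CCGGAAG, and Ndufs7 (chr10:80249199-80249498, plus strand) a YY1 motif, AAGATGGCG. NRF-1, the ETS factor GABP and YY1 are known regulators of nuclear genes for respiratory subunits.
Uqcrc1: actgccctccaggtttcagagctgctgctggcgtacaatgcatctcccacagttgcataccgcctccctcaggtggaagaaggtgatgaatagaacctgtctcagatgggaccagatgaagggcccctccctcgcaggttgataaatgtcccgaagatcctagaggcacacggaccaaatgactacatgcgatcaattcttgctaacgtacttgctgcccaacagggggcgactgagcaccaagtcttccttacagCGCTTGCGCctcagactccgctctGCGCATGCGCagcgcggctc
Ndufa6: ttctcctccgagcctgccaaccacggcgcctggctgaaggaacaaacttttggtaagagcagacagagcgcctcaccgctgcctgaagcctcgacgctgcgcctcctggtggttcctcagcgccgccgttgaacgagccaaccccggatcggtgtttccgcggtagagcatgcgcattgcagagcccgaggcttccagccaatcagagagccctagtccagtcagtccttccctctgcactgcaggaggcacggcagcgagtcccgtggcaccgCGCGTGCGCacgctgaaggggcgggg
Ndufb7: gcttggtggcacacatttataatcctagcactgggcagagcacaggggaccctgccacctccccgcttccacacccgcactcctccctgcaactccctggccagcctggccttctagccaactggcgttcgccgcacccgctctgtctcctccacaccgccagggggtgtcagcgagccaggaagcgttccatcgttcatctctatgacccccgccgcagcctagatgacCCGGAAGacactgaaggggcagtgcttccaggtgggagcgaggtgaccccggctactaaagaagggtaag
Ndufs7: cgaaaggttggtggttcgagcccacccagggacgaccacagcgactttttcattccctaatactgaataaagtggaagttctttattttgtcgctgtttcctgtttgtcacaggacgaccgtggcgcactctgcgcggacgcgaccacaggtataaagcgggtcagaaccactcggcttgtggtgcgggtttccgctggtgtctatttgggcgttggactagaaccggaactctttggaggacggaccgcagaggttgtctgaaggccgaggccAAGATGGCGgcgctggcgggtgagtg

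A promoter was matched for 76 of the 92 members. The NRF-1 motif was present in 21 of them (27.6%, against 6.47% of 27025 promoters, 1 per gene), the ETS motif in 16 (21.1%, against 9.12%) and the YY1 motif in 7 (9.21%, against 1.495%). An ERR motif, TCAAGGTCA, was present in 2, Sdhd and Atp5g3 (2.63%, against 0.407%). All were searched on both strands, and a match here is a run of letters and not a bound site. The member promoters had a median GC content of 57.8%, against 52.7% for all promoters, and that difference was not adjusted for. Where a gene had several promoters listed, members took the one nearest the transcript start and all promoters the first listed. The 27025 promoters also outnumber the 20683 genes with a coding transcript, so they were not limited to such genes. The shares are therefore not like for like. Members with and without the NRF-1 motif had medians of -0.79 and -0.35 for heart minus liver. These were -0.07 and -0.27 for heart minus kidney, and -0.54 and 0.06 for kidney minus liver. For the ETS motif the medians with and without it were -0.17 and -0.48, -0.30 and -0.21, and -0.15 and -0.21 in the same order. For the YY1 motif they were -0.57 and -0.46, -0.21 and -0.26, and -0.43 and -0.16. The heart minus liver median was thus lower with the NRF-1 motif and higher with the ETS motif. The part of the motifs in these differences was not tested. Members with the NRF-1 motif were not of 1 order, since Uqcrc1 was highest in the kidney, Ndufa6 lowest in the liver and Ndufa11 highest in the liver.

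Complex IV, cytochrome c oxidase, has several subunits with tissue-specific isoforms. Of its 17 members compared, 2 were at least 2-fold higher in heart than in liver (11.8%, against 17.2% of all genes). Another 3 were lower (17.6%, against 25.1%). In heart against kidney, 3 were higher (17.6%, against 10.2%) and 3 lower (17.6%, against 22.8%). The 3 higher were Cox8b, Cox6a2 and Cox6b2. Cox8b and Cox6a2 reached RPKM 1 in the heart library alone, and Cox4i2, among the lower, in the kidney and liver alone. Their places in these counts, and those of Cox8b and Cox4i2 in heart against liver, therefore follow partly from the filter. With a pseudocount of 5, 0 members were higher in heart than in kidney. In kidney against liver, 3 were higher (17.6%, against 23.6%) and 2 lower (11.8%, against 17.8%). The medians were -0.39, -0.12 and -0.15, and over its subunits with at most 2 reads per bp on average -0.10, -0.30 and 0.0046. The 4 most abundant members of the complex stayed within 2-fold between libraries. Ndufa4 had 265 RPKM in the heart, 234 in the kidney and 331 in the liver, Cox6b1, which faces the intermembrane space, had 252, 274 and 303 RPKM, Cox6c had 206, 220 and 270 RPKM, and Cox4i1 had 172, 259 and 228 RPKM.

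The matrix-side subunits Cox5a and Cox5b had different orders. Cox5a had 17.7 RPKM (15.1 to 20.5) in the heart, 18.4 (15.9 to 21.2) in the kidney and 79.4 (74.4 to 84.8) in the liver, so the heart was 4.50-fold (3.82 to 5.32) and the kidney 4.32-fold (3.70 to 5.06) below the liver. Cox5b had 21.7 RPKM (18.7 to 25.2) in the heart, 63.3 (58.1 to 68.8) in the kidney and 19.0 (16.3 to 21.98) in the liver, so the kidney was 3.33-fold above the liver (2.81 to 3.97) and the heart 2.91-fold below the kidney (2.45 to 3.47). The membrane subunits Cox8a (38.6, 86.9 and 25.6 RPKM in heart, kidney and liver) and Cox6a1 (102, 149 and 49.9 RPKM) were also highest in the kidney and lowest in the liver.

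The isoforms known from heart and skeletal muscle were a small part of their pairs. Cox7a1 had 11.1 RPKM (8.46 to 14.4) in the heart, 18.9 (15.5 to 22.9) in the kidney and 15.8 (12.8 to 19.3) in the liver, which was 8.00%, 12.7% and 7.66% of the sum of Cox7a1 and its widely expressed partner Cox7a2. Cox6a2 had 18 reads in the heart (1.90 RPKM), 2 in the kidney (0.197 RPKM) and 8 in the liver (0.731 RPKM), at most 1.84% of its pair with Cox6a1. Cox8b had 15 reads in the heart (2.89 RPKM) and 0 reads in both the kidney and the liver, and a floor of 3 reads in those libraries puts the heart at least 5.38-fold above the kidney and at least 5.79-fold above the liver. Of the 13 cardiomyocyte markers, all had reads in the heart library, 7 had 0 reads in the kidney and 12 had 0 reads in the liver. Myh6, the cardiac myosin heavy chain, had 14 reads in the heart and 0 in both others. The part of such transcripts in the Cox8b and Cox6a2 values was not tested.

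Cox4i2, an isoform of Cox4i1 known from the lung and from the response to low oxygen, had 1 read in the heart, 44 in the kidney (3.93 RPKM) and 47 in the liver (3.90 RPKM). The heart was 40.9-fold below the kidney with an interval of 6.97 to 1652, a width set by the single read. Cox6b2, known from the testis, had 7.06 RPKM (5.37 to 9.11) in the heart, 2.89 (1.89 to 4.24) in the kidney and 19.4 (16.7 to 22.4) in the liver, or 2.73%, 1.05% and 6.02% of its pair with Cox6b1. Of 3 members below the filter, Cox8c, another testis isoform, had 0 reads in every library, Cox7b2 had 1 read in the liver alone and Ndufa4l2 had 1 read in the kidney alone. The more widely expressed isoform was thus the higher one in every library and pair.

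Complex V is built from the catalytic F1 head and the membrane-bound Fo part, which holds the rotating ring. In heart against liver, 0 of its 15 subunits were 2-fold higher (against 17.2% of all genes) and 3 lower (20%, against 25.1%). In heart against kidney, 0 were higher (against 10.2%) and 2 lower (13.3%, against 22.8%). In kidney against liver, 2 were higher (13.3%, against 23.6%) and 0 lower (against 17.8%). The medians were -0.48, -0.05 and -0.30, and over its subunits with at most 2 reads per bp on average -0.69, -0.78 and 0.08. Its subunits lay closest together in the kidney, with an SD of 1.35 log2 units in the heart, 0.70 in the kidney and 1.19 in the liver.

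In the F1 head, the δ subunit Atp5d of the central stalk had 4.56 RPKM (3.49 to 5.86) in the heart, 33.3 (30.4 to 36.4) in the kidney and 10.8 (9.27 to 12.6) in the liver. The heart was 7.30-fold below the kidney (5.59 to 9.70) and 2.38-fold below the liver (1.76 to 3.24), and the kidney was 3.07-fold above the liver (2.57 to 3.68). Atp5e, the ε subunit that binds beside it, was level at 218 RPKM in the heart, 205 in the kidney and 229 in the liver. Atp5a1, the α subunit, had 106 RPKM (103 to 110) in the heart, 159 (155 to 163) in the kidney and 75.4 (72.7 to 78.1) in the liver. Atp5b, the catalytic β subunit, had 47.4 RPKM (44.8 to 50.1) in the heart, 96.0 (92.5 to 99.6) in the kidney and 80.8 (77.7 to 84.0) in the liver. Both α and β were thus highest in the kidney. In the stalk, Atp5o, the subunit that ties F1 to the stator, had 211, 218 and 295 RPKM in heart, kidney and liver, and Atp5h, subunit d, had 212, 211 and 287 RPKM.

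The ring of subunit c is encoded by 3 genes, Atp5g1, Atp5g2 and Atp5g3, whose mature proteins are the same. Atp5g1 had 47.2 RPKM (43.3 to 51.4) in the heart, 94.0 (88.7 to 99.6) in the kidney and 175 (168 to 182) in the liver. Atp5g2 had 63.0 RPKM (58.0 to 68.3) in the heart, 126 (119 to 133) in the kidney and 183 (175 to 191) in the liver. Atp5g3 had 98.1 RPKM (92.2 to 104) in the heart, 87.4 (82.0 to 93.0) in the kidney and 92.5 (87.2 to 98.2) in the liver, so Atp5g3 was level while the other two differed. Atp5g3 gave 47.1% of the summed RPKM of the 3 genes in the heart, 28.4% in the kidney and 20.6% in the liver. The sum itself was 208 RPKM in the heart, 307 in the kidney and 450 in the liver, so the total for subunit c was lowest in the heart.

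**Figure D3:**
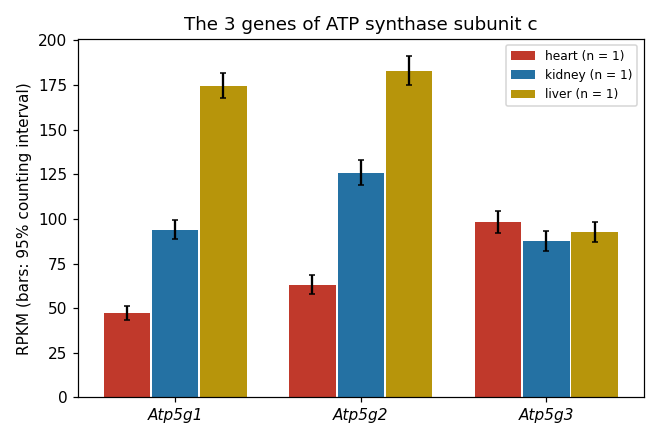
Bars give the RPKM of Atp5g1, Atp5g2 and Atp5g3 in the heart, kidney and liver libraries, with 95% counting intervals and 1 library per tissue. Atp5g1 and Atp5g2 step up in the order heart, kidney, liver, while Atp5g3 stays between 87.4 and 98.1 RPKM.

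The genes set apart from complex V were low. Atp5s, the coupling factor B, had 3.93, 4.70 and 4.08 RPKM in heart, kidney and liver. Atp5sl, known from human cells as an assembly factor for the membrane arm of complex I, had 2.93 RPKM (2.39 to 3.56) in the heart, 7.45 (6.60 to 8.39) in the kidney and 2.31 (1.86 to 2.83) in the liver, so the kidney was 3.23-fold above the liver (2.54 to 4.14).

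The transcripts of the members were short, with a median of 726.5 bp of exon against 2720 bp for all genes compared, and they were densely read. At more than 2 reads per bp in at least 1 library there were 49 of 92 members (53.3%), against 8.6% of all genes. The counting command carried a limit on the reads taken at 1 position, which could compress the densest genes. Densities nonetheless reached 11.8 reads per bp in the heart, 18.8 in the kidney and 13.3 in the liver, and how the limit acted on these values could not be settled from the table. The 49 dense members had a median absolute difference of 0.67 between heart and liver, 0.24 between heart and kidney and 0.61 between kidney and liver, and the 40 other members compared had 0.87, 0.70 and 1.09. For all genes on either side of the same density, these values were 0.68, 0.42 and 0.62 (922 genes) and 0.85, 0.67 and 0.83 (9797 genes).

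The direction of the kidney and liver comparison differed with density. The median of kidney minus liver was -0.45 over the 49 dense members and 0.30 over the other 40, so the negative median over all members rests on the dense ones. All genes showed the same turn, with -0.20 over 922 dense genes and 0.06 over 9797 others. For heart minus liver the medians were -0.48 and -0.10, and for heart minus kidney -0.13 and -0.53. All 3 libraries lay within 2-fold of each other for 30 of the 49 dense members (61.2%, against 53.1% of 922 genes) and for 8 of the other 40 (20%, against 33.3% of 9797 genes). The part of the limit on reads in these values was not tested.

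The base composition of the transcripts moved with the heart and kidney comparison. Over the 89 members, GC content and heart minus kidney had a Pearson r of -0.51 and a Spearman rho of -0.56, against -0.29 and -0.33 over 10639 genes, where all points share the same pair of libraries. In the 30 members lowest in GC content (up to 49.4%) the median of heart minus kidney was -0.05. In the next 29 members it was -0.18, and in the 30 members highest in GC content (from 54.3%) it was -0.98. All genes in the same ranges of GC content had medians of 0.03, -0.39 and -0.76. Relative to the median of all genes of like GC content, 8 members were at least 2-fold lower in heart than in kidney (8.99%, against 14% of all genes), and all 8 were among the 19 found without that centring.

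**Figure D4:**
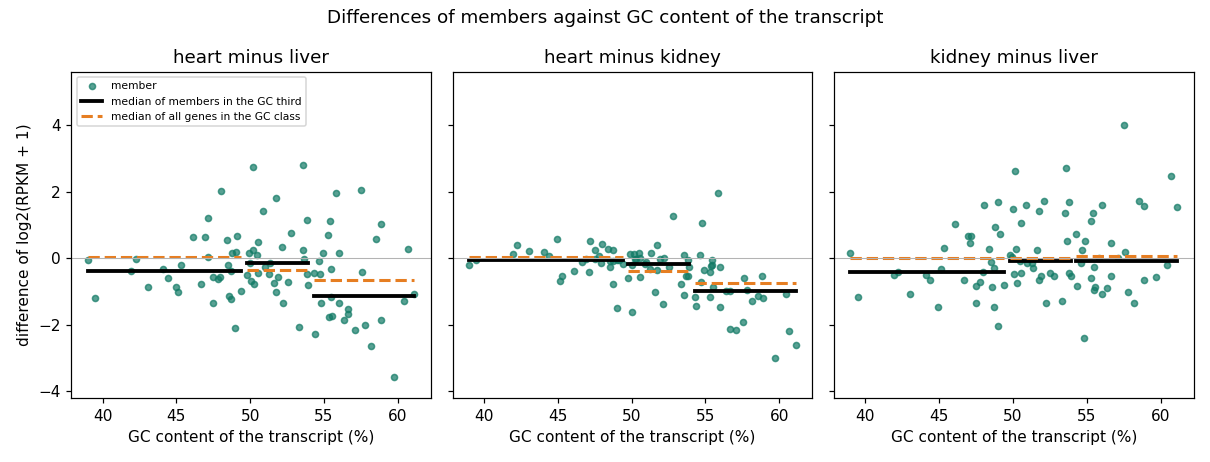
Each point is 1 member, placed by the GC content of its transcript in percent (horizontal axis) and by its difference on log2(RPKM + 1) (vertical axis), in 1 panel per pair of libraries. In the heart minus kidney panel the points slope down, from a median of -0.05 in the 30 members lowest in GC content to -0.98 in the 30 highest.

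GC content moved less with the other comparisons. Its r was -0.15 with heart minus liver and 0.21 with kidney minus liver over the members, and -0.21 and 0.02 over all genes. In the 30 members highest in GC content, heart minus liver had a median of -1.13, against -0.39 in the 30 lowest. All genes in these ranges had medians of -0.66 and 0.03. Among the members named above, Ndufb7, Ndufv1, Ndufs7 and Atp5d, all far below the kidney in the heart, had transcripts of 59.7%, 56.7%, 60.7% and 61.1% GC, and Ndufa6 and Uqcrq, close between heart and kidney, had 53.6% and 50.2%. These are examples only. Uqcrc1 and Cox5b, also at least 2-fold below the kidney in the heart, are not among them. The part of base composition in these differences was not tested.

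Reads were counted on both strands, and 23 members share exon bases with another gene. The largest shares were 39.0% for Ndufb6, with Smim27 on the opposite strand, 34.1% for Atp5o, 30.0% for Ndufa13, with Tssk6, and 20.6% for Ndufb9. Values of these 4 members may hold reads of their neighbours. How reads with several matches in the genome were assigned is not given in the sources used here, which leaves a further uncertainty for members with close paralogues or processed pseudogenes.

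Genes that work with the subunits but fall outside the rule were set beside them. Of 9 other subunits and carriers measured, 1 was at least 2-fold higher and 1 lower in heart than in liver (11.1% each). Of all genes, 17.2% were higher and 25.1% lower. In the heart against the kidney 0 were higher (against 10.2% of all genes) and 1 lower (11.1%, against 22.8%). In the kidney against the liver 2 were higher (22.2%, against 23.6%) and 1 lower (11.1%, against 17.8%). Cyc1, cytochrome c1 of complex III, had 3.74 RPKM in the heart, 9.55 in the kidney and 11.6 in the liver. Cycs, the cytochrome c that carries electrons to complex IV, had 46.4, 34.2 and 84.0 RPKM, and Slc25a4, an exchanger of ATP and ADP, had 79.1, 96.2 and 30.9 RPKM in heart, kidney and liver. The subunits encoded by mitochondrial DNA were looked for by symbol, such as mt-Nd1. They were not found among the genes with a coding transcript, so they were not analysed here.

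Of 36 assembly factors of the respiratory complexes outside the rule, 7 were at least 2-fold higher and 13 lower in heart than in liver. These were 19.4% and 36.1%, against 17.2% and 25.1% of all genes. In heart against kidney, 2 were higher (5.56%, against 10.2%) and 11 lower (30.6%, against 22.8%). In kidney against liver, 4 were higher (11.1%, against 23.6%) and 9 lower (25%, against 17.8%). The medians were -0.64, -0.39 and -0.18, against -0.18, -0.23 and 0.03 over all genes. Cox19, which serves complex IV assembly, had 5.76 RPKM in the heart, 11.7 in the kidney and 44.6 in the liver. Atpaf2, a chaperone of the α subunit of F1, had 7.61, 17.2 and 0.355 RPKM, so its low library was the liver, as was that of Atp5a1. Sco1, a copper chaperone of complex IV, had 0.15, 5.01 and 3.56 RPKM in heart, kidney and liver, and Ecsit, a complex I assembly factor, had 1.997, 8.01 and 19.0 RPKM.

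Of 17 enzymes of the tricarboxylic acid cycle and pyruvate dehydrogenase, 5 were higher and 3 lower in heart than in liver. These were 29.4% and 17.6%, against 17.2% and 25.1% of all genes. In heart against kidney, 0 were higher (against 10.2%) and 1 lower (5.88%, against 22.8%). In kidney against liver, 5 were higher (29.4%, against 23.6%) and 1 lower (5.88%, against 17.8%). The medians were -0.11, -0.27 and 0.16, against -0.18, -0.23 and 0.03 over all genes. Mdh2, the mitochondrial malate dehydrogenase, had 141 RPKM in the heart, 192 in the kidney and 39.99 in the liver. Fh1, fumarase, had 45.8, 55.3 and 11.5 RPKM, and Pdhb, a pyruvate dehydrogenase subunit, had 53.5, 63.3 and 15.2 RPKM. These 3 enzymes were lowest in the liver.

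Of 18 regulators of mitochondrial gene expression compared, 3 were higher and 2 lower in heart than in liver. These were 16.7% and 11.1%, against 17.2% and 25.1% of all genes. In heart against kidney, 0 were higher (against 10.2%) and 6 lower (33.3%, against 22.8%). In kidney against liver, 8 were higher (44.4%, against 23.6%) and 2 lower (11.1%, against 17.8%). The medians were 0.00, -0.75 and 0.78, against -0.18, -0.23 and 0.03 over all genes. Ppargc1a, the coactivator PGC-1α, had 0, 2.31 and 0 RPKM in heart, kidney and liver, and Esrrg, an oestrogen-related receptor, had 0.01, 2.41 and 0 RPKM. The 11 markers of the thick ascending limb and distal nephron other than Wnk1 moved with these, at 0.063 RPKM in the heart, 365 in the kidney and 0.985 in the liver, and Umod, which defines the thick limb, had 0, 215 and 0 RPKM. The part of such cells in the kidney values of these regulators and of the members was not tested. Tfb1m, a mitochondrial ribosomal RNA methyltransferase, had 0.78, 5.19 and 15.1 RPKM in heart, kidney and liver, Gabpa, the DNA-binding subunit of GABP, had 15.7, 9.30 and 4.98 RPKM, and Yy1 had 11.3, 15.5 and 3.94 RPKM.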

How the data were processed

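RNA-seq libraries of sorted heart, kidney and liver macrophages, 1 per tissue, were compared. The authors deposited RPKM values for 34711 RefSeq transcripts. Per the file headers these were made with HOMER's analyzeRepeats.pl, which took exons and both strands, scaled each library to 1000000 and had the option -pc 3, a limit on tags per position. The column names say FPKM. The submitters' processing notes name CASAVA, STAR and mm10, with settings not given in the sources used here.

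Reads were recovered from the steps of the RPKM values. Of values up to 500 reads, 15280 of 15284 in the heart, 14212 of 14219 in the kidney and 12139 of 12154 in the liver library lay within 0.1 of a whole number. RPKM intervals are exact 95% Poisson intervals and ratio intervals exact 95% Clopper-Pearson intervals. A fold of a single gene is the plain ratio of its RPKM values. Differences are on log2(RPKM + 1), which understates folds of low genes. With 1 library per tissue there is no test, no standard error and no p-value, and a count test was not run. The calculation was tested on simulated data.

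The members and gene lists were chosen with earlier results of these data known. Named genes were, per complex, the 3 highest in mean level and the 2 with the largest difference in each comparison, and the largest 3 per comparison in lists outside the rule. Other members were named after their values were seen, and 2 genes are not reported here by name. Sequences came from RefSeq promoters of GRCm38.p6, exon overlap from GENCODE vM21. Alternatives were another pseudocount, filter, scaling (TPM, median ratio), threshold, limit on density, structural subunits alone and, chosen after seeing the data, centring within classes of like GC content, members sharing no exon base and a limit on mean density. Python 3.11.15, pandas 2.3.3, numpy 2.4.6, scipy 1.17.1 and matplotlib 3.10.9 were used.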

Additional observations from a re-analysis of the deposited data

How the results depend on the processing

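No paired analysis was possible because there was 1 library per tissue, and for the same reason no library could be left out. The median of heart minus liver, -0.44, was -0.29 on TPM, -0.18 with median ratio scaling, -0.10 over members of at most 2 reads per bp, -0.22 over those of at most 2 on average and -0.22 relative to genes of like GC content. The median of heart minus kidney, -0.24, was 0.027 with median ratio scaling, which set the median of all genes to about 0, 0.048 relative to genes of like GC content, -0.53 at up to 2 reads per bp and -0.40 at up to 2 on average. It therefore has no direction that holds under every scaling. The median of kidney minus liver, -0.16, was -0.30 with a filter of RPKM 10, -0.032 on TPM and -0.28 over structural subunits, and it reversed to 0.30 at up to 2 reads per bp and 0.25 at up to 2 on average. At these 2 limits the kidney minus liver median relative to all genes reversed to 0.27 and 0.22, that of complex I to 0.30 and 0.30, and that of complex III to 2.63 and 0.99, while complex V reversed to 0.25 at the first. Complex III also reversed for heart minus liver, to 2.06 and 0.46. These limits leave few subunits of complex III, and the cause was not tested. Members higher in heart than in liver, 11, were 7 with a pseudocount of 5, 6 at up to 2 reads per bp and 4 at 2 log2 units, and those lower, 25, were 13 and 6 under the last 2. Members higher in heart than in kidney, 3, were 0 with a pseudocount of 5, 1 with the filter of RPKM 10 and 0 at 2 log2 units. Those lower, 19, were 11 with a pseudocount of 5, 12 with median ratio scaling, 5 at 2 log2 units and 8 relative to genes of like GC content. Median ratio scaling thus gave 13.5% of members lower, against 17.3% of all genes. Members higher in kidney than in liver, 20, were 13 at up to 2 reads per bp and 4 at 2 log2 units, and those lower, 12, were 2 at 2 log2 units. At 2 log2 units, 4.49% of members were higher and 6.74% lower in heart than in liver (all genes 5.16% and 7.18%). Heart against kidney gave 0% and 5.62% (2.29% and 5.09%), and kidney against liver 4.49% and 2.25% (7.4% and 5.1%). At up to 2 reads per bp, heart against liver gave 15% and 32.5% (genes of that density 17.5% and 25.4%). Members higher in kidney than in liver were 32.5% there (24.5%). Of 327 values under alternatives, 238 stayed within the limits set, 78 moved and 11 reversed. The depth, 8607054 to 10213953 reads over 1 transcript per gene, limits members of few reads (Cox8b, Cox6a2, Cox4i2, Ndufaf6). Having 1 library per tissue limits all comparisons.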
